A study of Mus musculus with 12 samples.

Results

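Histone modifications were described over 10 mouse genes that act on foreign compounds, namely the oxidising enzymes Cyp3a11, Cyp3a13, Cyp3a25, Cyp2b10 and Cyp1a1, the carboxylesterase Ces2e, the nuclear receptors Nr1i2 and Nr1i3, and the efflux pumps Abcb1a and Abcg2. The genes were fixed by name, and a peak was counted for a gene when it overlapped the gene body or the 5 kb on either side of it, among 21924 protein-coding genes in all. The peaks came from ChIP-Rx of small-intestinal crypts and villi, that is, ChIP-seq with fly chromatin added as a spike-in, in a study of the cleavage of histone H3 tails during intestinal differentiation. The series has 12 libraries, an input and 5 histone post-translational modifications (PTMs) for each compartment, and 8 lists were used here, those of H3K4me3, H3K4me1, H3K27me3 and H3K9me3 in crypts and in villi. Both groups are untreated mouse small intestine, with villi scraped off and crypts released from the remaining tissue with EDTA, and strain, age, sex and the number of animals are not given in the sources used here. There was 1 library per compartment and PTM, so the differences between crypts and villi below could not be tested and have no replicate check.

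Crypts hold the dividing stem and progenitor cells of the intestinal epithelium, and villi carry the differentiated cells, mostly absorptive enterocytes. Enterocytes, like hepatocytes, oxidise or hydrolyse drugs and dietary compounds (phase I), conjugate the products (phase II) and pump them out of the cell. The receptors PXR (Nr1i2), CAR (Nr1i3) and AHR sense such compounds and switch on these genes. H3K4me3 marks the starts of active or poised genes, H3K4me1 marks enhancers and the flanks of promoters, H3K27me3 is laid down by Polycomb at silent genes, and H3K9me3 marks heterochromatin.

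The lists held 16489 H3K4me3 peaks in crypts and 16977 in villi, 54642 and 55341 of H3K4me1, 7611 and 13797 of H3K27me3, and 2126 and 2089 of H3K9me3. Depth is unknown, since the lists hold no read counts, and the value of each peak is the authors' −log10 p-value, a score that grows with sequencing depth and was therefore compared as a rank within its own list. Of 6 crypts markers, 5 had an H3K4me3 peak in crypts and 4 in villi, with Olfm4 marked in crypts alone and Lyz1 in neither. All 8 villi markers carried H3K4me3 in both compartments. Of 4 immune markers, none had an H3K4me3 peak in crypts and 2, Ptprc and Cd3e, had one in villi. The mesenchymal markers Pdgfra and Col1a1, of 5 such genes, had one in both compartments, but within 1 kb of a start Pdgfra had it in both and Col1a1 in villi alone. Of 6 liver markers, 3 had a peak in their window in crypts and 2 in villi, but 1, Apoh, had one within 1 kb of a start, and Alb had none.

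All 10 genes had an H3K4me3 peak and an H3K4me1 peak in crypts and again in villi. None had an H3K27me3 or an H3K9me3 peak in either compartment. The H3K9me2 lists held 6 peaks in crypts and 3 in villi over the whole genome. That none fell in these windows therefore says nothing about the genes. Among all protein-coding genes, 63.2% had H3K4me3 in crypts and 63.6% in villi, and 69.2% had H3K4me1 in crypts and 68.8% in villi. H3K27me3 was called over 17.9% of genes in crypts and 23% in villi, and H3K9me3 over 3.91% and 3.12%. The full pattern of the 10 genes, both H3K4 marks in both compartments without a repressive peak, held for 9128 genes, or 41.6%, so it is a common one. Loss or gain of a mark between compartments was seen for 0 of the 10 genes, against 1.14% of all genes with H3K4me3 in crypts alone and 1.48% in villi alone. For H3K4me1 these shares were 3.07% and 2.71%, for H3K27me3 0.748% and 5.85%, and for H3K9me3 1.98% and 1.19%. When only the top 50% of each list by score was kept, 5 of the 10 genes had H3K4me3 in crypts and 7 in villi, against 45.5% and 46.6% of all genes, and 2 (Cyp3a13 and Ces2e) had it in villi and not in crypts, against 2.92%. These counts take in peaks at the starts of neighbouring genes, at Cyp1a1 in both compartments and at Nr1i3 in crypts. A missing peak means that none passed the authors' threshold, not that the mark is absent.

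**Figure D1:**
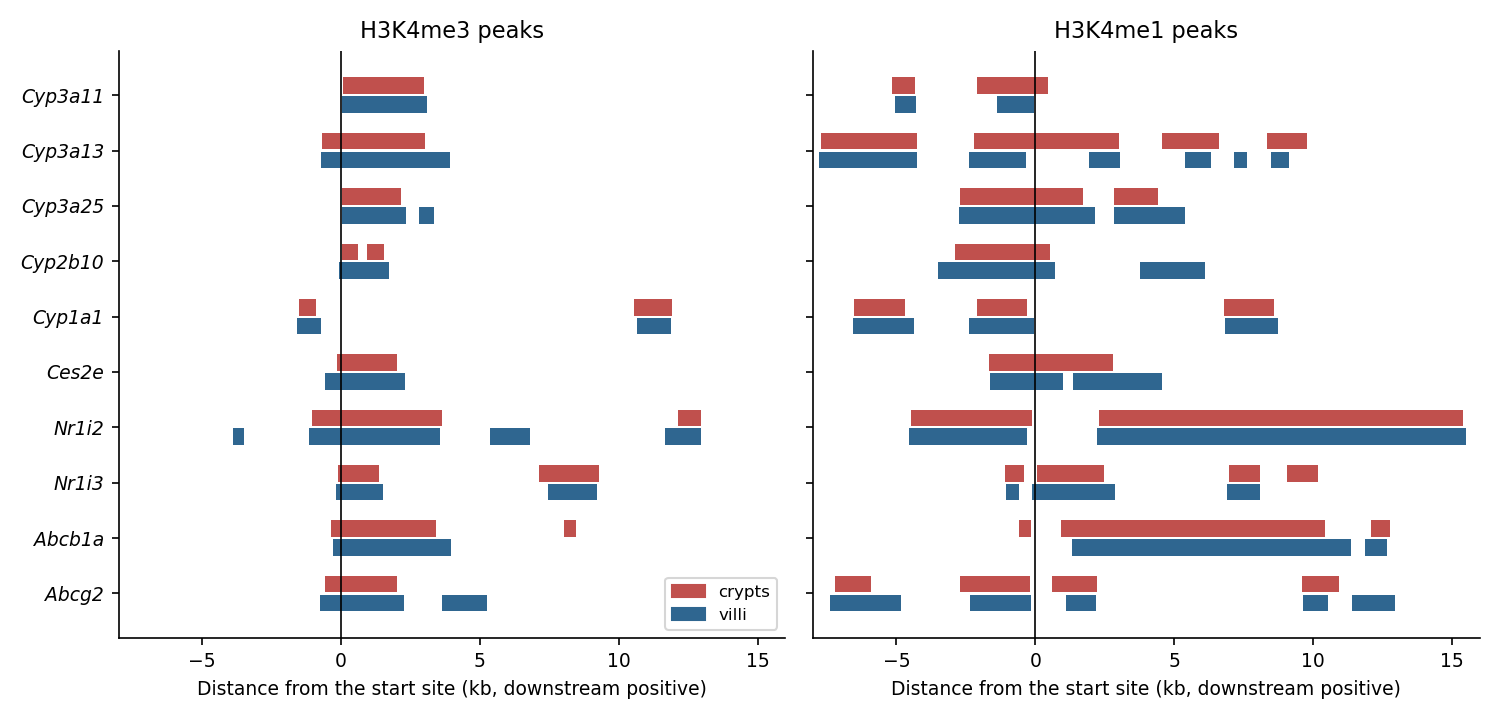
Peaks of H3K4me3 (left) and H3K4me1 (right) at each gene in crypts (red) and villi (blue), by distance in kb from the start site, with the direction of transcription to the right. Peaks beyond the axis, at Nr1i2 and Abcg2, are not drawn. H3K4me3 lay at or just inside the start of every gene but Cyp1a1, where it lay 881 bp upstream in crypts and 727 bp upstream in villi.

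The 3 Cyp3a genes encode P450 enzymes of the family that oxidises the widest range of drugs, and Cyp3a11 is the counterpart in mouse of human CYP3A4. Cyp3a11 (minus strand, chr5:145854426-145879964, GRCm38) had 1 H3K4me3 peak in each compartment, of 2925 bp in crypts (chr5:145876964-145879888) and 3062 bp in villi (chr5:145876858-145879919). Both peaks began inside the gene, 76 bp and 45 bp downstream of this start, and covered the start that RefSeq gives, at 145879854. The score stood at the 25.5 percentile of the crypts list and the 33.7 percentile of the villi list. H3K4me1 lay on the other side of the start, between -2101 and 443 bp of it in crypts but between -1363 and -54 bp in villi (upstream negative), with a further peak near the edge of the upstream flank in both. The covered H3K4me1 length of the window was thus shorter in villi, 2004 bp against 3226 bp.

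Cyp3a13 (minus strand, chr5:137892932-137921619) lies apart from the other Cyp3a genes on the same chromosome. Its H3K4me3 peak spanned the start and measured 3696 bp in crypts against 4642 bp in villi, and its score rank rose from the 48.5 to the 73.6 percentile, the largest shift of the 10 genes. H3K4me1 went the other way. It covered 9455 bp of the window in 4 peaks in crypts and 5927 bp in 6 peaks in villi. The crypts peak over the start, 5228 bp wide, faced 2 peaks of 1121 and 2040 bp in villi that left the start itself uncovered.

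Cyp3a25 (minus strand, chr5:145977194-146009618) had H3K4me3 peaks of 2137 bp in crypts against 2274 bp in villi that began 42 and 56 bp inside the gene. A second H3K4me3 peak of 536 bp, in an intron 2823 bp downstream of the start, was called in villi alone. H3K4me1 crossed the start in both compartments, over 4459 bp in crypts against 4900 bp in villi.

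The other 6 Cyp3a genes of the cluster, Cyp3a16, Cyp3a41a, Cyp3a41b, Cyp3a44, Cyp3a57 and Cyp3a59, had no H3K4me3 peak in either compartment. H3K4me1 was called at 2 of them, at Cyp3a44 in both compartments (814 bp in crypts against 738 bp in villi) and at Cyp3a59 (1923 bp in crypts, chr5:146077761-146079683, over its start, and in villi the last 55 bp of a peak at chr5:146072433-146074311, which otherwise lies outside the window). Cyp3a59 is the gene whose promoter is closest to that of Cyp3a25. The 250 bases upstream of both starts (GRCm38, Cyp3a25 at chr5:146009618-146009867 on the minus strand and Cyp3a59 at chr5:146079017-146079266 on the plus strand) are shown. H3K4me3 was called just inside the start of Cyp3a25 and not at Cyp3a59, and the bases shown lie under no H3K4me3 peak. Capitals mark bases that are not shared in the alignment of the pair. The runs of capitals near the ends stand opposite gaps of the alignment. The run AGGCCTAGC of Cyp3a59 also occurs in Cyp3a25, at its annotated start, beyond the bases shown.
Cyp3a25: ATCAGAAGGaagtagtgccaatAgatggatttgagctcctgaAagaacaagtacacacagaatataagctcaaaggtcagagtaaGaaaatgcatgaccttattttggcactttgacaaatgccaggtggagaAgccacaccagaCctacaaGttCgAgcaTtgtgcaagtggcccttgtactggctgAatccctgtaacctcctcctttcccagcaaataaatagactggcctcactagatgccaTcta
Cyp3a59: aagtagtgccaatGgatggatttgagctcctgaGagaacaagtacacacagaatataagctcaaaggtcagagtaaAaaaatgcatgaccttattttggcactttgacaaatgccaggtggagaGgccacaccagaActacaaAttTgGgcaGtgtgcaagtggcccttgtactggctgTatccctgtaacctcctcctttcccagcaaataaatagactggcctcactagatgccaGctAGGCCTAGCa
In this alignment 230 of 259 columns were identical, or 88.8%. The gaps at both ends count among the columns, so this share understates the likeness of the aligned bases. Such likeness bears on the calls, since the aligner reported 1 position for a read that fits several equally well. Within 1 kb of the start, 34.1% of the 31-base words of Cyp3a25 and 30.7% of those of Cyp3a59 occur elsewhere in the genome too, against 4.72% for Cyp3a11 and 6.49% for Cyp3a13. The shares were 89.8% for Cyp3a41a and 90.3% for Cyp3a41b, 47.2% for Cyp3a16, 32.5% for Cyp3a44 and 12.9% for Cyp3a57. A lack of peaks at Cyp3a41a and Cyp3a41b therefore says little about either gene.

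Cyp2b10 (plus strand, chr7:25897620-25926624) encodes the P450 enzyme best known for its induction through CAR. In crypts its start had 2 short H3K4me3 peaks, of 609 bp (chr7:25897643-25898251) and 595 bp (chr7:25898566-25899160). A single peak of 1796 bp in villi (chr7:25897543-25899338) covered both and the gap between them. Its score ranked low in both lists, at the 25.2 and the 26.4 percentile. H3K4me1 extended upstream of the start, to -2890 bp in crypts (chr7:25894730-25898145) and -3490 bp in villi (chr7:25894130-25898328), and ranked at the 86 and the 86.2 percentile of its lists. An intronic H3K4me1 peak of 2346 bp, 3762 bp downstream of the start, was called in villi alone (chr7:25901382-25903727). With it the covered H3K4me1 length of the window was 6545 bp in villi and 3416 bp in crypts.

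CAR with its partner RXR binds pairs of half-sites, and the classical drug-responsive enhancer of Cyp2b10 lies upstream of the gene. The half-sites AGGTCA and AGTACA, in this order and 4 bases apart on either strand, were searched because they are known from that enhancer. They occurred once in the crypts H3K4me1 peak, from -2298 to -2283 bp of the start. Among 6052 crypts H3K4me1 peaks at least as wide, the central 3416 bp held this pair in 10, or 0.165%. The stretch around the match (GRCm38, chr7:25895282-25895377, plus strand) follows with the match in capitals, read here on the strand opposite to the half-sites as spelled.
Cyp2b10 upstream H3K4me1: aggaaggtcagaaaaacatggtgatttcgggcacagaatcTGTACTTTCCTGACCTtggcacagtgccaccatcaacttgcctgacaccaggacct
The plainer pair of half-sites AGGTCA or AGTTCA, 4 bases apart, was not found in that peak, which says only that these letters are not in it, and was present in 0.595% of the same 6052 central stretches. The crypts H3K4me3 and H3K4me1 peaks within 1 kb of a start were searched in the same way at all 10 genes. Neither this pair, nor the same pair 3 bases apart, nor half-sites in opposite directions 6 bases apart, was found at any gene. Such pairs were rare in other peaks too, and binding of PXR or CAR was not tested.

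Cyp1a1 (plus strand, chr9:57687928-57703824) is the P450 enzyme induced through AHR by dioxins and dietary indoles. Its H3K4me3 did not lie over a start. The peak measured 634 bp in crypts (chr9:57696099-57696732) against 843 bp in villi (chr9:57696044-57696886), upstream of the start at 57697613 and within the first intron of a longer transcript that starts at 57687928. No H3K4me3 came within 8171 bp of that first start in crypts or 8116 bp in villi. The score had the lowest rank of the 10 genes in both lists, at the 19.8 and the 20.3 percentile. H3K4me1 over the same place was wider, 1802 bp in crypts (chr9:57695531-57697332) and 2362 bp in villi (chr9:57695216-57697577), and ranked at the 92.8 and the 96.7 percentile. A second H3K4me3 peak in the window belongs to the start of the neighbouring gene Edc3. Cyp1a2, the liver P450 gene that shares this locus on the opposite strand, had no peak of any of the 4 PTMs.

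AHR with its partner ARNT binds the xenobiotic response element, searched here as TNGCGTG on both strands. The crypts H3K4me3 peak of Cyp1a1 held 5 matches, beginning at -1384, -1208, -1063, -986 and -897 bp of the start. Of 14577 crypts H3K4me3 peaks at least as wide, 14.6% held the motif in their central 634 bp, and 1, the Cyp1a1 peak itself, held 5 or more. The wider H3K4me1 peak held 7 matches, a number reached by 2 of 18626 such peaks, Cyp1a1 included. A stretch of the H3K4me3 peak with 3 of the matches in capitals (GRCm38, chr9:57696385-57696684, plus strand, from -1228 to -929 bp of the start) is shown because it is where the mark and the motifs coincide.
Cyp1a1 upstream H3K4me3: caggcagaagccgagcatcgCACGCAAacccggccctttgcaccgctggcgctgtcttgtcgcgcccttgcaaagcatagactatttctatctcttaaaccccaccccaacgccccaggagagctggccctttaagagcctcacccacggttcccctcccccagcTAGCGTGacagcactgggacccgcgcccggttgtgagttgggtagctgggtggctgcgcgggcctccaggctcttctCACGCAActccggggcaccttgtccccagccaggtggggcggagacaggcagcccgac
The 31-base words of this peak were all unique in the genome.

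Ces2e (plus strand, chr8:104926260-104934672) encodes a carboxylesterase that hydrolyses ester drugs and lipids. Its start carried an H3K4me3 peak of 2171 bp in crypts (chr8:104926108-104928278) and 2867 bp in villi (chr8:104925688-104928554), and the score rank rose from the 41.2 to the 54.3 percentile. The peak reached 156 bp upstream of the start in crypts and 576 bp in villi. H3K4me1 was 1 peak of 4439 bp in crypts and 2 peaks of 2614 and 3219 bp in villi.

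Among the receptors, Nr1i2 (minus strand, chr16:38248323-38294824), which encodes PXR, had one of the widest H3K4me3 peaks, 4652 bp in crypts (chr16:38291197-38295848) and 4714 bp in villi (chr16:38291266-38295979). These were at least as wide as 97.6% and 96.9% of the peaks of their lists, and their scores ranked at the 86.5 and the 84.6 percentile. Inside the gene, overlapping the end of that peak, an H3K4me1 peak of 13094 bp in crypts (chr16:38279444-38292537) and 13289 bp in villi (chr16:38279305-38292593) was at least as wide as 99.8% of H3K4me1 peaks in either list. A further H3K4me1 peak lay on the upstream side, and none covered the start. A weak intronic H3K4me3 peak was called in both compartments, of 839 bp in crypts against 1287 bp in villi, within the broad H3K4me1 peak. Villi had 2 more small H3K4me3 peaks without a counterpart in crypts, an intronic one of 1431 bp and one of 402 bp upstream, over the neighbouring gene Maats1.

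Nr1i3 (plus strand, chr1:171213970-171220701), which encodes CAR, is better known from liver. Its start had an H3K4me3 peak of 1476 bp in crypts (chr1:171213866-171215341) and 1693 bp in villi (chr1:171213800-171215492), and the score rank was 41.1 in crypts and 54.1 in villi. The second H3K4me3 peak of its window, 2169 and 1765 bp wide, belongs to the start of the neighbour Tomm40l, so the covered length of the window was shorter in villi, 3458 bp against 3645 bp, although the peak of Nr1i3 itself was wider. An H3K4me1 peak of 1092 bp between Tomm40l and Apoa2 was called in crypts alone.

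Abcb1a (plus strand, chr5:8660077-8748575) encodes the P-glycoprotein that pumps drugs back into the gut lumen. Its H3K4me3 peak measured 3800 bp in crypts (chr5:8659717-8663516) against 4251 bp in villi (chr5:8659805-8664055), with the score at the 87.3 and the 85.7 percentile, the highest ranks of the 10 genes in both lists. It was followed inside the gene by an H3K4me1 peak of 9502 bp in crypts (chr5:8660991-8670492) and 10020 bp in villi (chr5:8661416-8671435), at least as wide as 99.4% of either list. That H3K4me1 peak ranked at the 99.8 percentile by score in crypts and at the 92.8 in villi. RefSeq places another start of the gene at 8567091, and the nearest H3K4me3 was 54532 bp from it in crypts and 54613 bp in villi. Small peaks in crypts alone were an intronic H3K4me3 peak of 450 bp and an H3K4me1 peak of 429 bp just upstream of the start.

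Next to it on the chromosome, Abcb1b encodes the second P-glycoprotein of the mouse. Its start carried a short H3K4me3 peak, 860 bp in crypts (chr5:8797996-8798855) and 737 bp in villi (chr5:8798061-8798797), at the 22.4 and the 27.4 percentile. Over the same bases lay an H3K27me3 peak of 1095 bp in crypts (chr5:8797986-8799080) and 1017 bp in villi (chr5:8798127-8799143), with a −log10 p-value of 11.01 and 17.5. This was the H3K27me3 peak nearest to Abcb1a, 49411 bp from the end of the gene in crypts and 49552 bp in villi. Of the adjacent pump genes, Abcb1b had H3K27me3 called at its start and Abcb1a did not.

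Abcg2 (plus strand, chr6:58584523-58695676) encodes the breast cancer resistance protein, an efflux pump of the apical membrane. Of its 7 annotated starts, H3K4me3 covered the cluster at 58640560, 58640564 and 58640582, in a peak of 2608 bp in crypts (chr6:58639976-58642583) and 3049 bp in villi (chr6:58639798-58642846). From the upstream starts at 58584523 and 58596671 the nearest H3K4me3 was 55453 and 43305 bp away in crypts. Villi had a second H3K4me3 peak, of 1626 bp in an intron (chr6:58644212-58645837). H3K4me1 was scattered over the window in 9 peaks in crypts and 12 in villi, 3 of which had no counterpart in crypts.

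At the starts, the H3K4me3 peak was wider in villi at all 10 genes. Among 12415 genes with a start-site peak in both compartments, 40.6% had the wider peak in villi. The median log2 ratio of widths, villi over crypts, was 0.21 for the 10 genes and -0.04 for all genes, with quartiles of -0.16 and 0.08. By gene the ratio was 0.02 at Nr1i2, 0.07 at Cyp3a11 and 0.09 at Cyp3a25. It was 0.16 at Abcb1a, 0.20 at Nr1i3 and 0.23 at Abcg2, and 0.33 at Cyp3a13, 0.40 at Ces2e and 0.41 at Cyp1a1. The 1.56 of Cyp2b10 rests on the split of its crypts peak, and after peaks under 1 kb apart were merged it was 0.24. The same merging joined the small villi peak of Cyp3a25 to its start-site peak and moved the ratio there from 0.09 to 0.63, the largest of the 10 after merging, while the other 8 ratios stayed as they were. At 8 genes, Cyp2b10 among them, the ratio lay above 0.08, the upper quartile of all genes, and at Nr1i2 and Cyp3a11 it lay below. These genes were chosen with earlier results of the data known, and the difference has no replicate check. Widths and score ranks place a peak among the others of its own list and do not use the spike-in. They therefore do not measure how much H3K4me3 a compartment holds, and a wider or higher-ranked peak in villi does not show a gain of the PTM there. From spike-in normalised signal, the paper reports that PTMs near the tail end, H3K4me3 and H3K4me1 among them, dropped strongly in villi at their sites. H3K27me3 was the exception it names.

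**Figure D2:**
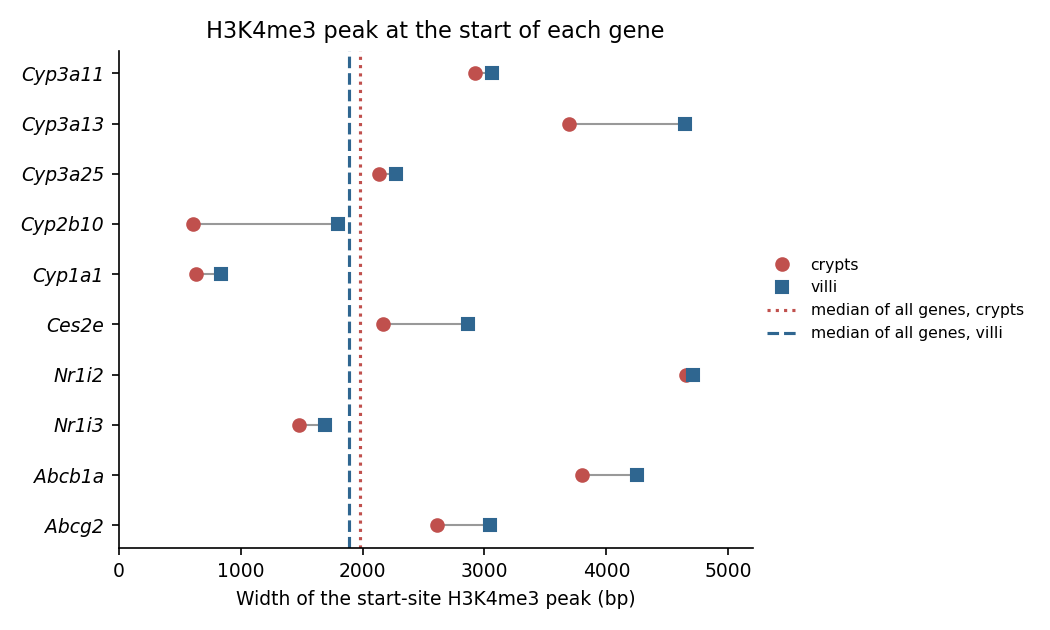
Width in bp of the H3K4me3 peak at the start of each gene in crypts (circles) and villi (squares), 1 library each, with dotted and dashed lines at the median of 12415 genes, 1979 bp in crypts against 1886 bp in villi. The villi symbol is to the right of the crypts symbol at every gene, from 4652 and 4714 bp at Nr1i2 to 609 and 1796 bp at Cyp2b10.

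Score ranks of the same peaks were higher in villi at 8 of the 10 genes, against 53.1% of all genes, and slightly lower at Nr1i2 and Abcb1a, with shifts of -1.8 and -1.7 percentile points.
The median shift was 4.7 points for the 10 genes and 0.6 for all genes, with quartiles of -5.6 and 6.9. The shift was above that upper quartile at Cyp3a13 (25.2), Ces2e (13.1), Nr1i3 (13.0), Cyp3a25 (11.1) and Cyp3a11 (8.3), and below it at Cyp2b10 (1.2), Abcg2 (1.0) and Cyp1a1 (0.5). Peaks of lower rank tended to move up in general. Genes ranked from 25 to 50 in crypts, where 6 of the 10 genes lie, had a median shift of 2.5 points and quartiles of -2.5 and 7.9. The immune markers Ptprc and Cd3e had H3K4me3 in villi alone, as did Col1a1 within 1 kb of a start, and their part in these differences was not tested.

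**Figure D3:**
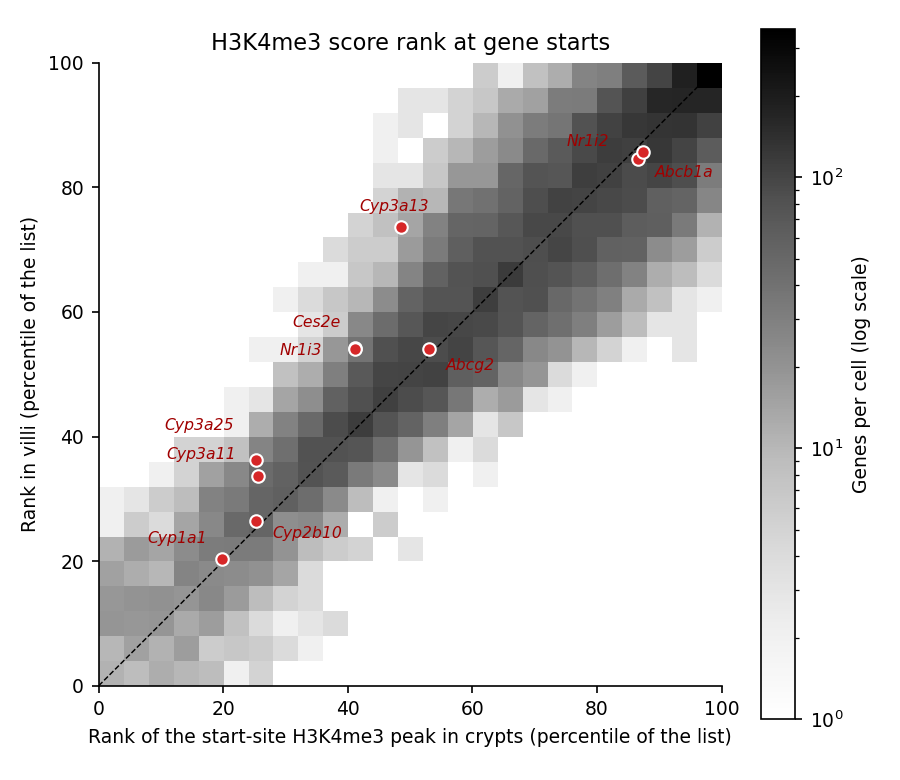
Rank of the start-site H3K4me3 peak by score within the crypts list (x axis) and the villi list (y axis), in percentiles, with the 10 genes in red over the number of genes per cell in grey (log scale) and the dashed line of equal rank. Cyp3a13 stands farthest from the line, at 48.5 in crypts and 73.6 in villi, and Ces2e and Nr1i3 lie on each other.

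Over the whole window, the covered H3K4me3 length was longer in villi at 9 of 10 genes, against 41.9% of all genes with peaks in both, and Nr1i3 was the exception. At Abcb1a, one of the 9, the lengths were 4251 and 4250 bp, which is practically a tie. The covered H3K4me1 length was longer in villi at 7 of 10 genes, against 52.4% of all genes. For H3K4me1 the median log2 ratio was 0.19 for the 10 genes and 0.02 for all genes, and the quartiles of all genes, -0.27 and 0.31, took in 6 of the 10. The exceptions were Cyp3a11 with -0.69 and Cyp3a13 with -0.67 on one side and Ces2e with 0.39 and Cyp2b10 with 0.94 on the other.

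The layout of the marks around the start also differed among the genes. H3K4me3 covered the start base itself at 6 of the 10 genes in crypts and 7 in villi, against 88.1% and 86.7% of genes with a start-site H3K4me3 peak. Here 1 start per gene was taken, that of the principal transcript, and Cyp3a11, Cyp3a25 and Cyp1a1 were uncovered in both compartments, and Cyp2b10 in crypts. The count depends on this choice, since another GENCODE start of Cyp2b10, at 25897676, lay under the crypts peak and the RefSeq start of Cyp3a11 under both. With any GENCODE coding start, 7 of the 10 genes were covered in each compartment, against 96.2% of genes in crypts and 95.1% in villi. H3K4me1 covered the start base at 5 genes in crypts (Cyp3a11, Cyp3a13, Cyp3a25, Cyp2b10 and Ces2e) and 4 in villi (Cyp3a25, Cyp2b10, Ces2e and Nr1i3), against 20.9% and 22.4% of those genes. With any coding start the counts for H3K4me1 were again 5 and 4, against 32.4% and 33.5%. All 5 genes in crypts were phase I enzymes, of 6 in all, and in villi 3 of the 6 were covered together with the receptor Nr1i3.

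Promoters of these genes are mostly poor in CpG dinucleotides, the feature that goes with broad H3K4me3 at widely expressed genes. From 250 bases before the start through the first 50 bases of the transcript, Cyp3a11, Cyp3a13 and Cyp3a25 each had 1 CpG, Ces2e and Nr1i2 had 2, Nr1i3 had 3, Cyp2b10 and Cyp1a1 had 4, Abcb1a had 8 and Abcg2 had 31. The median over 21821 promoters was 12. The upstream 250 bases of Cyp3a13 (chr5:137921620-137921869, minus strand) and Abcg2 (chr6:58640314-58640563, plus strand), both from GRCm38, show the extremes, with CpG in capitals.
Cyp3a13: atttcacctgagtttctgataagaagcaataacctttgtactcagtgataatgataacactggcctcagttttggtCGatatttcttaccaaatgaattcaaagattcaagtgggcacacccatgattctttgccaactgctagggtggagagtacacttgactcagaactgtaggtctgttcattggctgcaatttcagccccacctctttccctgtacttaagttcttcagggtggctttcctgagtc
Abcg2: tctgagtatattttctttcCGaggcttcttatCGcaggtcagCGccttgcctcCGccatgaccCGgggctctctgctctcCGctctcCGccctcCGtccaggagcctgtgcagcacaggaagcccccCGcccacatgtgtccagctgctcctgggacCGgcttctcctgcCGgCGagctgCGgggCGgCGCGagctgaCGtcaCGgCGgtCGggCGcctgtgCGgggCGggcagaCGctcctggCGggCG
Both starts carried H3K4me3 in both compartments. Of all promoters with 8 or fewer CpG, 2051 of 9437 had H3K4me3 within 1 kb of a start in both compartments, or 21.7%, against 83.1% of those with more. All 9 of the CpG-poor genes among the 10 belonged to the marked share, which follows from the peaks already reported and is no separate result. The limit of 8 equals the count of Abcb1a, so it takes in every gene but Abcg2. TATAAA occurred in the promoters of Cyp3a11 and Cyp1a1, beginning at -124 and -30, and in 13.3% of all promoters. The HNF4 motif CAAAGTCCA occurred at Cyp3a11, from 1 to 9 bp downstream of the start base, and in 0.426% of all promoters. These matches are descriptions of sequence and not sites shown to be bound.

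Repressive peaks were distant from most of the genes. The nearest H3K27me3 peak was at Pcp4l1, 15591 bp from Nr1i3 in crypts and 14664 bp in villi, and the next nearest lay 40059 bp from Cyp3a13 in villi. At the other genes the distance was from 49411 bp, at Abcb1a, to 504843 bp, at Cyp3a11. For H3K9me3 the nearest peak lay 19172 bp from Cyp3a25 in villi and 21157 bp in crypts, between genes of the Cyp3a cluster. Elsewhere the H3K9me3 distance was from 34601 bp, at Nr1i2 in crypts, to 1756932 bp, at Abcb1a in villi.

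Genes of the same pathways were read from lists chosen for their known roles, with earlier results of the data known. Of 16 further phase I genes, 15 had H3K4me3 in both compartments and 1, Akr1b8, in neither. Long stretches of the window were covered at Cyp4f14, a fatty acid hydroxylase (3382 bp in crypts against 7605 bp in villi), and Cbr1 (3730 and 3606 bp, over several peaks). Cyp2j6 (3070 and 2787 bp) and the carboxylesterase Ces2c (1866 and 3547 bp) came next. One of the 16 carried H3K27me3, Cyp1b1, over 8107 bp in crypts against 9980 bp in villi, beside H3K4me3 of 438 and 423 bp. Of 14 conjugating enzymes, 13 had H3K4me3 in both compartments, with long coverage at Ugt2b34 (6038 and 5653 bp) and the sulfotransferases Sult2b1 (3879 and 6443 bp, over several peaks) and Sult1b1 (4754 and 5140 bp), and Gsta1 had none. Of the 31-base words within 1 kb of the Gsta1 start, 85.3% occur elsewhere in the genome, so its missing peak says little. Sult2b1 also had H3K27me3, and Ugt1a1 had the one H3K9me3 peak of this list in both compartments.

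All 9 further transporters had H3K4me3 in both compartments, with the longest coverage at the peptide transporter Slc15a1, 5434 bp in crypts against 11964 bp in villi. H3K27me3 was called at Abcb1b, Abcc1 and Abcc4 in both compartments and at Slco2b1 in villi alone, and within 1 kb of a start at Abcb1b and Abcc4. All 11 receptors and partners had H3K4me3 in both, and all but Ahrr had it within 1 kb of a start in both, with Hnf4a covered over 16377 and 16144 bp, Vdr over 9942 and 9511 bp and Nfe2l2 over 9339 and 9774 bp. Ahr, the receptor that acts on Cyp1a1, had 3191 and 3091 bp. The window of Keap1 took in part of an H3K27me3 peak in both compartments, 1409 bp in crypts and 1456 in villi, all of it in the flank of the gene. Ahrr, which encodes the repressor of AHR, had H3K27me3 in villi alone, over 5449 bp. Neither had it within 1 kb of a start. H3K9me3 was called at 3 of the 11 in crypts, Vdr and Ppara among them, and at none in villi, against 3.91% and 3.12% of all genes, and at none within 1 kb of a start.

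Liver genes were counted in the same way. Of 31 genes of drug and bile acid metabolism in liver, 4 of which are Cyp3a genes named above, 1 had an H3K4me3 peak, Cyp7b1, an oxysterol hydroxylase, with 857 bp in crypts against 454 bp in villi. H3K4me1 was present at 13 of the 31 in each compartment, among them Cyp8b1, Slc10a1, the bile acid importer of hepatocytes, and Abcb11, their bile salt export pump. H3K27me3 was called at 1 in crypts, Abcb11, and at 3 in villi, with Cyp2d9 and Slc10a1 added. Most of these genes without H3K4me3 thus had no H3K27me3 or H3K9me3 peak either. Their promoters were as poor in CpG as those of the 10 genes, with a median of 2 against 2.5. Of the 29 with 8 or fewer CpG none had H3K4me3 within 1 kb of a start in both compartments, whereas 10 of 10 such phase I genes and 8 of 9 such phase II genes did. Many of the liver genes belong to families of near-identical copies, where reads are hard to place. With genes left out where 20% or more of the 31-base words within 1 kb of the start occur elsewhere too, the counts were 0 of 14 liver genes, 10 of 10 phase I genes and 7 of 7 phase II genes. The lists were drawn up by where the genes are known to be used, so this split describes the choice of genes as well as the data.

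**Figure D4:**
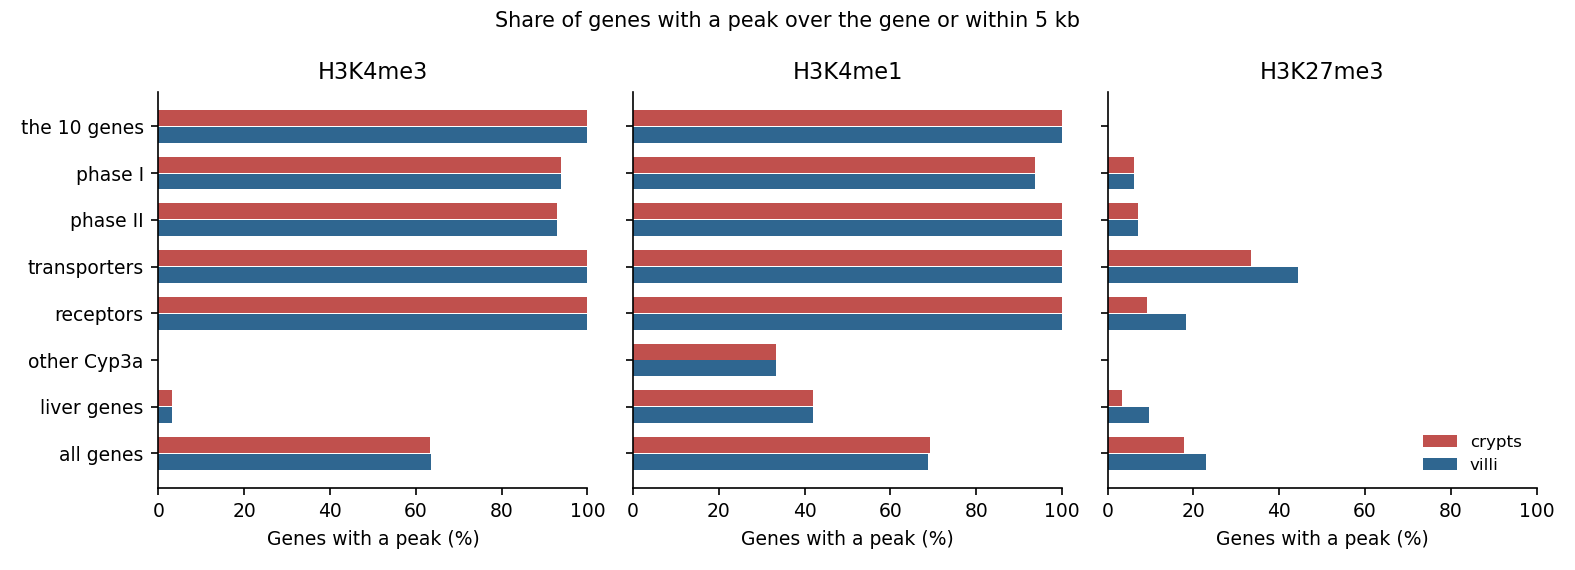
Share in percent of genes with a peak over the gene or within 5 kb of it in crypts (red) and villi (blue), for H3K4me3, H3K4me1 and H3K27me3, in the 10 genes, 4 further lists of the pathway, the other Cyp3a genes, the liver genes and all 21924 genes. H3K4me3 was present at 1 of 31 liver genes and 0 of 6 other Cyp3a genes, and at 10 of 10, 15 of 16, 13 of 14, 9 of 9 and 11 of 11 genes of the intestinal lists.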

How the data were processed

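ChIP-Rx libraries of crypts and villi, 12 in all, were grouped by the compartment and antibody in their labels. The 2 inputs have no list used here. The authors aligned reads to mm10 and dm6 with Bowtie 1.1.2, reporting 1 position per read, removed duplicates with samblaster, discarded reads that fit both genomes and called peaks with MACS2 2.1.1. Each deposited list gives peak positions and 1 value, taken as the authors' −log10 p-value since it is 10 or more throughout, although a q-value cannot be told apart. The spike-in does not enter this value. All 169081 peaks lie within the chromosome lengths of GRCm38, the assembly that mm10 names.

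Peaks were counted at an overlap of at least 1 bp with the gene body plus or minus 5 kb, from GENCODE M21 protein-coding genes. The start-site peak is the highest-scoring H3K4me3 peak within 1 kb of a start. The members and lists were chosen with earlier results of these data known. Named were the 10 genes, neighbours with a start in a window, and up to 4 genes per list by H3K4me3 and by H3K27me3 covered length, summed over both compartments. Genes outside this rule, such as Ahr, Apoh and Cyp8b1, were added after their values were seen. Sequences were read from the RefSeq copy of GRCm38 with samtools 1.23.1 and pysam 0.24.0 and aligned with Biopython 1.88. Other values came from Python 3.11.15, NumPy 2.4.6 and pandas 2.3.3, and figures from Matplotlib 3.10.9. The overlap code was tested on simulated windows. Alternatives changed the window, the list threshold, the overlap and, added after the data were seen, the annotation, merging of peaks, the length compared and the start sites.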

Additional observations from a re-analysis of the deposited data

How the results depend on the processing

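With the top 50% of each list by score, 5 of the 10 genes kept H3K4me3 in crypts (Cyp1a1, Nr1i2, Nr1i3, Abcb1a and Abcg2) and 7 in villi, against 45.5% and 46.6% of all genes, so that 2 (Cyp3a13 and Ces2e) had it in villi and not in crypts, against 2.92%. For Cyp1a1 in both compartments and Nr1i3 in crypts the peak that stays is that of a neighbour, Edc3 or Tomm40l. By their own start-site peaks, 3 genes stay in crypts (Nr1i2, Abcb1a and Abcg2) and 6 in villi, with Cyp3a13, Ces2e and Nr1i3 added. H3K4me1 was called in crypts and not in villi at 1 gene with the gene body alone (Cyp3a11) and at 1 gene within 1 kb of starts (Abcb1a). For the 10 genes, all other counts of genes with a peak stayed within 1.5 times the values above under the gene body alone, plus or minus 10 kb, 1 kb around starts, the top 50%, at least 50% of a peak in the window and RefSeq bounds. Counts of the pathway and liver lists were repeated within 1 kb of starts alone, where some fell further, such as liver genes with H3K4me1 (13 in each compartment to 6 in crypts and 7 in villi) and transporters with H3K27me3 in villi (4 to 2). Peaks wider in villi were found at 10 genes after merging, and covered length was longer at 9. No paired analysis was possible because there is 1 library per group and the labels carry no replicate numbers. Depth is unknown, which limits what a missing peak shows.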

Other observations

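Among the listed genes, chosen here after their values were seen, Slc15a1 and Cyp4f14 had H3K4me3 that reached farther in villi. At Slc15a1, the importer of di- and tripeptides, 1 peak of 5434 bp in crypts faced peaks of 7434, 1032 and 3498 bp in villi, and the rank of the main peak was 46.7 in crypts and 79.1 in villi. At Cyp4f14, peaks of 2879 and 503 bp in crypts faced 1 peak of 7605 bp in villi, with ranks of 60.6 and 82.0. Slco2b1, an uptake carrier, had a shorter covered H3K4me3 length in villi, 951 bp against 2121 bp. It also had an H3K27me3 peak of 1567 bp in villi alone (chr7:99653724-99655290). That peak lay far from the villi H3K4me3 peak at its start (chr7:99694939-99695889). With 1 library per compartment none of these differences has a replicate check.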
